A study of Rattus norvegicus with 12 samples.

Results

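The genes described here serve antimicrobial defence in the gut lining: Reg3b and Reg3g, antibacterial lectins, Lyz2, lysozyme, Pla2g2a, a secretory phospholipase, and Pigr, the transporter of polymeric immunoglobulin. They were measured in mucosa scraped from rat jejunum, which lies between duodenum and ileum, in samples labelled high Fe or low Fe. Members were taken as the probe sets whose single gene symbol in the platform annotation is one of these names. This gave 5 probe sets, 1 for each of the 5 genes, all on the Affymetrix array 230A, out of 31142 probe sets besides controls on 230A and its companion 230B. On 230B there were 0. The probe sets of both types with a single symbol name 13810 genes. Each group had 3 samples, titled with the numbers 1 to 3 and called replicates here, and each sample was run on both array types. All titles say week 12, and those run on 230A carry iron deficiency and anemia as keywords. Strain, diet composition and age of the rats are not given in the sources used here. The labels do not say whether each sample is its own animal. A p-value here therefore reflects the spread of these samples alone, and that spread may be technical.

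The small intestine keeps bacteria away from its surface with secreted proteins and with immunoglobulin A. Enterocytes and Paneth cells release Reg3 lectins, whose genes are switched on by bacterial signals through Toll-like receptors and by interleukin 22 through STAT3. Paneth cells at the crypt base store lysozyme, defensins and secretory phospholipase in granules, and macrophages also make lysozyme. Immunoglobulin A from plasma cells, joined by the J chain, is carried through epithelial cells to the lumen by the polymeric immunoglobulin receptor, which Pigr encodes.

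In the RefSeq annotation of the rat assembly GRCr8, Reg3b and Reg3g lie on chromosome 4 with only Reg3a and Reg1a between them among protein-coding genes, in 1 cluster of related lectins. The 250 bases before the annotated start of both lectin genes, and of Pigr for contrast, are shown to let the shared parts of the Reg3 pair be read. Capitals mark matches, on either strand, to TATAAA (the TATA box), to TTCNNNGAA (the letters STAT proteins bind) and to CACGTG (an E-box), and no match overlapped another.
Reg3b, GRCr8 chr4:112419526-112419775, plus strand: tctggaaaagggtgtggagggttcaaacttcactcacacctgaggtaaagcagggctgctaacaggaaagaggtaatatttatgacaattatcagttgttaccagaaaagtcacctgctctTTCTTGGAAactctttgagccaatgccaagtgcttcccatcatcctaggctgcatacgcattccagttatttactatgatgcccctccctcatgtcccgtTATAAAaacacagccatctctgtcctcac
Reg3g, GRCr8 chr4:112484739-112484988, minus strand: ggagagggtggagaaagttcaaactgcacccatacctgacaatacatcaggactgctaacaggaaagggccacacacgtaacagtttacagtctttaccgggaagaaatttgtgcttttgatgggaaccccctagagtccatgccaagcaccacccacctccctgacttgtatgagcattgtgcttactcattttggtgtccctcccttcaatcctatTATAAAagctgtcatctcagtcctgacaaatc
Pigr, GRCr8 chr13:44850932-44851181, plus strand: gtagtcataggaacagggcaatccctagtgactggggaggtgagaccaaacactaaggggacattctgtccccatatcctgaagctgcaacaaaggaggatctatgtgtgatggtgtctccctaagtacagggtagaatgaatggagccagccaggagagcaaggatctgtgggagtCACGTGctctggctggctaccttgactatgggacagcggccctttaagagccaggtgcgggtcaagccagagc

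The stretches of Reg3b and Reg3g were identical at 63.5% of the columns of a global alignment, against 40.1% to 47.1% for the other 9 pairs among the 5 members. Both Reg3 stretches held TATAAA, at -29 to -24 in Reg3b and at -32 to -27 in Reg3g, counted from the start. That motif was present in 12.9% of the 33469 stretches of the same length in the RefSeq table. TTCNNNGAA was found in Reg3b alone of the 5 members, at -129 to -121, and in 7.67% of all stretches. CACGTG was found in Pigr alone, at -73 to -68, and in 5.59% of all stretches. Lyz2 and Pla2g2a held none of these 3 motifs in this window. These matches describe letters and not bound sites.

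No member passed the test of low Fe against high Fe mucosa, and the intervals given below leave room for differences in most of them. Of the 4 members bright enough to be tested, 0 passed a limma adjusted p of 0.05, where 0.0945% of the 9520 probe sets tested on 230A passed, and 1, Reg3g, had an unadjusted p under 0.05, as did 6.72% of all tested. In this fit Reg3b, Reg3g and Pigr had log2 differences (low Fe minus high Fe) below 0 and Lyz2 one above 0, and the signs of Reg3b and Pigr turned in some alternatives given below. Pla2g2a, the fifth member, lay under the limit for testing. The groups overlapped for all 5 members, the untested Pla2g2a among them. They did not overlap for 11.7% of tested probe sets, a share too small for overlap in so few members to set them apart. For scale, the genes that check the group labels, Cybrd1, Tfrc and Slc11a2 of iron uptake and Hmox1, the heme-degrading oxygenase, all passed on these arrays, with log2 differences from 1.31 to 3.91. They were chosen with earlier results of these data known, so the check of the labels is not independent.

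Some facts of the arrays bear on the members. High Fe replicate 2 stood apart in the spiked hybridization controls, with a mean of 10.3 (log2) against 9.23 to 9.52 on the other 5 arrays of 230A. Its summed signal of the 16 enterocyte markers was also the highest, 224207 against 146256 and 175492 in the other high Fe samples and 148041 to 185539 in low Fe. The 5'/3' ratio of the GAPDH controls, which drops when RNA or target is shortened, split the arrays of 230A into a lower set (0.794 to 0.811: low Fe replicates 2 and 3 with high Fe replicate 1) and a higher set of the other 3 (0.876 to 0.922). This split did not recur on 230B, where the GAPDH ratio was 0.873 in low Fe replicate 3 and 0.877 in low Fe replicate 1. The 5'/3' ratio of beta-actin on 230A was 0.054 in low Fe replicate 3 and 0.591 to 0.836 in the other 5. Without low Fe replicate 3 the members' log2 differences were -0.24 for Reg3b, -0.45 for Reg3g, 0.41 for Lyz2, 1.42 for Pla2g2a and -0.40 for Pigr. Without high Fe replicate 2 they were 0.17, -0.37, 0.55, 1.59 and -0.12 in the same order. All 16 enterocyte markers on 230A were bright enough to be tested, and Fabp1, a fatty acid binding protein of absorptive cells named after its values were seen, had signals from 14361 to 24886.

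Reg3b, a lectin that binds the walls of bacteria, had signals of 3174, 6567 and 2014 in high Fe replicates 1, 2 and 3. In low Fe the signals were 2727, 3176 and 2685. High Fe replicate 2 was the highest of the 6 samples, high Fe replicate 3 the lowest, and the low Fe samples lay close together between them. The means were 3918 ± 2366 in high Fe and 2863 ± 272 in low Fe (SD, n = 3 each). On the log2(signal + 16) scale used for all differences, the difference was -0.28 ± 0.35 (SE), which is 0.822-fold with a 95% interval of 0.470 to 1.44 (limma adjusted p = 0.884). The interval spans values on both sides of 1. Without high Fe replicate 2, the array that stands apart in its controls, the difference was 0.17. Scaled to those controls it was 0.09. Under that scaling the median over all tested probe sets moved from -0.02 to 0.34, and Reg3b lay below it. The part of that array's controls in the level of Reg3b was not tested.

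Reg3g, the lectin that binds the peptidoglycan of Gram-positive bacteria, had high Fe signals of 920.9, 1094 and 612.2 in replicates 1 to 3. Its low Fe signals were 657.9, 582.8 and 500.9. The 2 highest samples were high Fe and the 2 lowest were low Fe, and the groups overlapped because high Fe replicate 3 lay under low Fe replicate 1. The mean was 876 ± 244 in high Fe and 581 ± 78.5 in low Fe. The log2 difference was -0.55 ± 0.22, or 0.683-fold with a 95% interval of 0.487 to 0.960, at an unadjusted p of 0.0321 and a limma adjusted p of 0.714. Of all tested probe sets, 5.02% had a larger difference in size. Leaving out 1 array gave -0.78 to -0.37, with -0.78 without high Fe replicate 3 and -0.37 without high Fe replicate 2, and scaling to the hybridization controls gave -0.18. Its sign held in all 18 alternatives run, and the smallest adjusted p among them was 0.331. Those that change only the filter, the eBayes setting, the threshold or the replicate block cannot move the difference.

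Reg3b and Reg3g were both highest in high Fe replicate 2. Their low Fe signals spread over 1.18-fold and 1.31-fold. They ordered the other samples differently: high Fe replicate 3 was the lowest for Reg3b and low Fe replicate 3 the lowest for Reg3g. Their neighbours in the cluster, named here after their values were seen, gave no call either. Reg1a, a related secreted lectin, had high Fe signals of 712.6, 1385 and 991.4 and low Fe signals of 762.3, 633.9 and 1195, a log2 difference of -0.25 ± 0.28 (limma adjusted p = 0.874). Like both Reg3 lectins it was highest in high Fe replicate 2. Reg3a was dim in all 6 samples, at 34.6 to 62.7, and was not tested. Genes of this family resemble each other in sequence, and how far a probe set takes up RNA of a relative was not tested.

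**Figure D1:**
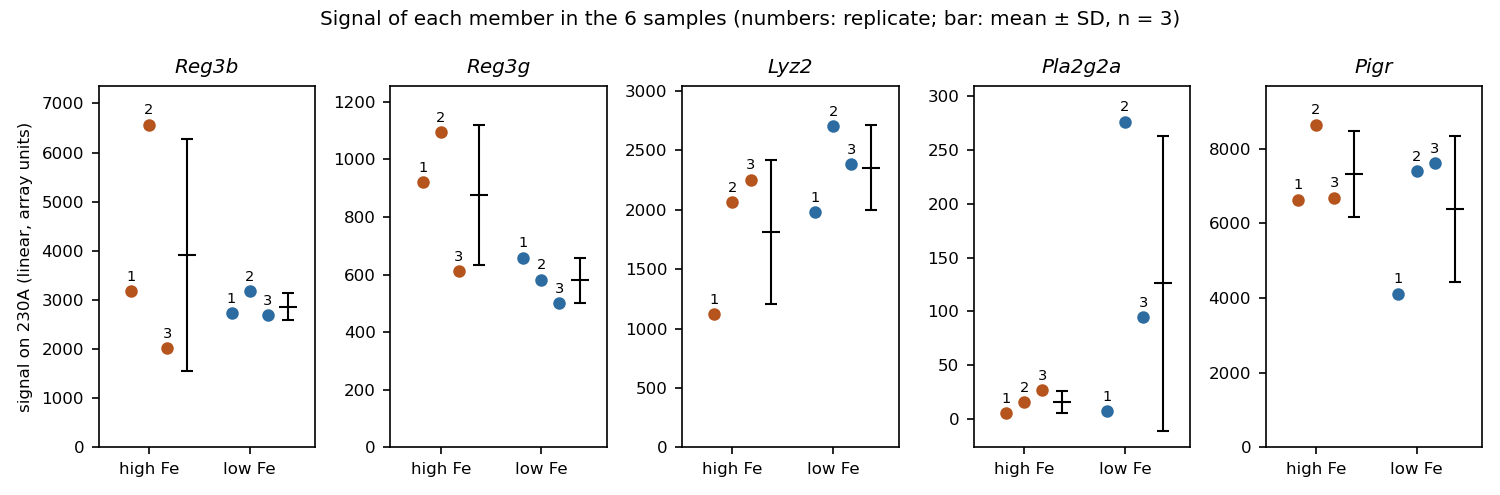
Signals of the 5 members on array 230A (linear, array units, one panel per gene) in the high Fe and low Fe samples; points are samples numbered by replicate, and the bar beside them is the mean ± SD, n = 3. The groups overlap in every panel, Reg3b at 6567 in high Fe replicate 2 stands above the other 5 samples, and Pla2g2a stays at or under 26.3 in 4 samples and reaches 94.4 and 276 in low Fe replicates 3 and 2.

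Lyz2 encodes lysozyme, the enzyme that cuts bacterial peptidoglycan. Its signals were 1121, 2066 and 2255 in high Fe replicates 1 to 3, and 1982, 2703 and 2382 in low Fe. High Fe replicate 1 was the lowest sample and low Fe replicates 2 and 3 were the highest, while low Fe replicate 1 lay among the high Fe samples. The means were 1814 ± 608 and 2356 ± 361. The log2 difference was 0.43 ± 0.25, or 1.34-fold with a 95% interval of 0.900 to 2.00 (limma adjusted p = 0.785). It was 0.11 without high Fe replicate 1, 0.61 without high Fe replicate 3, and 0.80 when scaled to the hybridization controls, where the median over all tested probe sets was 0.34. The sign held in all 18 alternatives, of which those named for Reg3g cannot move the difference. Lyz2 has a close relative beside it on chromosome 7, Lyc2, listed with Lyz2 among its older names, and RNA of the pair cannot be told apart by the annotation used here.

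Pla2g2a encodes the secretory phospholipase that breaks bacterial membranes. It was listed at 5.4, 15.6 and 26.3 in high Fe replicates 1 to 3 and at 6.8, 276 and 94.4 in low Fe. Low Fe replicates 2 and 3 were the highest, and low Fe replicate 1 was as low as the high Fe samples. Its mean over the 6 arrays, 70.8, lay below the limit of 109 under which probe sets were left untested, and 1 of the 6 signals was above that limit. As a description, the log2 difference was 1.56, which ran from 0.71 without low Fe replicate 2 to 2.55 without low Fe replicate 1. When dim probe sets were kept in the fit, the limma adjusted p was 0.822. These values rest on signals that were not shown to be above background, so the difference is no estimate of a fold change and the 4 dimmest have no order.

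Defa24, a Paneth cell alpha-defensin, had high Fe signals of 405.4, 669.7 and 855.1 and low Fe signals of 454.6, 1839 and 1389. Its log2 difference was 0.76 ± 0.47 (limma adjusted p = 0.789), so Defa24 did not pass. It ranked the 6 samples as Lyz2 did, from high Fe replicate 1 and low Fe replicate 1 through high Fe replicates 2 and 3 to low Fe replicates 3 and 2, and the iron groups overlap in that order. The likeness was noticed after the values were seen. Low Fe replicates 2 and 3 were also the brightest for Pla2g2a. Of 7031 other named genes tested, 26 followed the order of Lyz2. Among these was Myh11, smooth muscle myosin, with 164.4, 257.3 and 284.0 in high Fe and 181.8, 555.1 and 405.8 in low Fe.

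Of the list of Paneth cell markers, Mmp7, the metalloproteinase that processes defensins, was at 6.5 to 9.7 in all samples, and Defa5 at 9.5 to 12.7. Of the 8 genes of that list on 230A, 4 were tested and 0 passed, with a median log2 difference of 0.03 (-0.0018 over all 7032 tested genes). They were Defa24, the guanylin genes Guca2a (0.13) and Guca2b (-0.26), which other epithelial cells also make, and Xdh, xanthine dehydrogenase (-0.07). The Paneth list's tested gene on 230B, Spink4, which goblet cells also make, gave 0.04 ± 0.44. Sox9, also of that list on 230B, was dim at 5.6 to 14.1 and was not tested. Summed over the list on 230A, the signal was 28869 to 37568 in high Fe and 29224 to 32932 in low Fe, but Guca2a, Guca2b and Xdh make up most of that sum, which therefore does not measure Paneth cells. In scrapings, fewer cells of a type and less RNA per cell cannot be told apart. Macrophages, the other source of lysozyme, were marked by 11 tested genes on 230A and 4 on 230B, of which 0 passed. Csf1r, the receptor for their growth factor, gave 0.08 ± 0.16, and Cd68, a lysosomal protein, was dim at 54.9 to 117. The summed macrophage signal on 230A was 9672 to 10328 in high Fe and 9809 to 10482 in low Fe, ranges which overlap. Ctss alone made up most of that sum, at 5574 to 7379 in high Fe and 5577 to 6823 in low Fe. The sum therefore does not measure macrophages. On 230B the sums did not overlap, at 1912 to 2522 in high Fe and 3004 to 3448 in low Fe. Laptm5, a lysosomal protein of blood cells, supplied 510.2 to 1149 of them in high Fe and 1632 to 1958 in low Fe. On 230B Laptm5 gave 1.07 ± 0.30 (limma adjusted p = 0.441) and Cybb, the phagocyte oxidase, 0.78 ± 0.30. On 230A they gave 0.07 ± 0.35 and -0.11 ± 0.20. Fcer1g, an Fc receptor chain, gave 0.44 ± 0.15 and Aif1, a marker of macrophages, -0.24 ± 0.16 on 230A. The part of macrophage RNA in the values of Lyz2 was not tested.

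**Figure D2:**
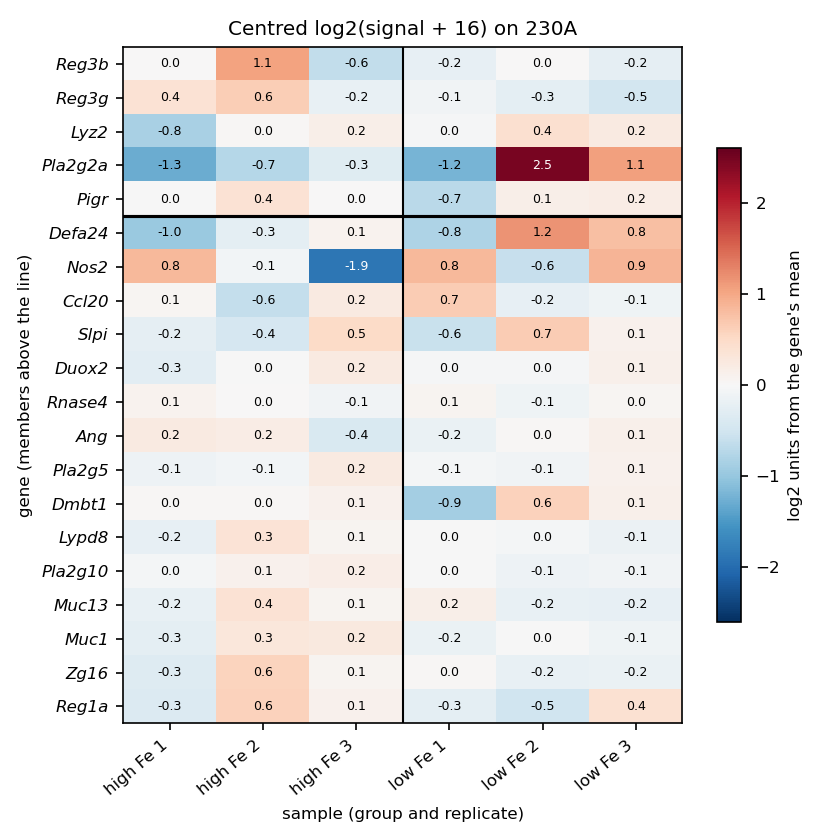
Centred log2(signal + 16) on 230A for the 5 members (above the line) and the 15 tested genes of the list of other antimicrobial effectors, with samples as columns; each cell gives the distance in log2 units from the gene's mean over the 6 arrays. Lyz2 and Defa24 are lowest in high Fe 1 and highest in low Fe 2, and Reg3b and Reg3g are highest in high Fe 2. Pla2g2a is also highest in low Fe 2, but its dimmest samples, high Fe 1 among them, have no order.

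Pigr carries immunoglobulin A into the lumen. Its signals were 6630, 8642 and 6691 in high Fe replicates 1 to 3, and 4120, 7391 and 7614 in low Fe. High Fe replicate 2 was the highest sample and low Fe replicate 1 the lowest, and the other 4 lay between 6630 and 7614. The means were 7321 ± 1144 and 6375 ± 1956. The log2 difference was -0.24 ± 0.23, or 0.846-fold with a 95% interval of 0.585 to 1.22 (limma adjusted p = 0.862). The sign rested on low Fe replicate 1: without it the difference was 0.05. Scaling to the hybridization controls gave 0.13, below the median of 0.34 over all tested probe sets under that scaling.

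The cells that supply the cargo of Pigr were followed by 23 fixed markers of plasma and B cells, of which 5 genes were tested on 230A and 7 on 230B, and 0 passed. On 230A 2 lay above 0 and 3 below (median -0.04), and on 230B 1 lay above and 6 below (median -0.12). Jchain, the chain that joins immunoglobulin A units, was measured on 230B, with 1027, 2522 and 1466 in high Fe and 1675, 7600 and 1752 in low Fe. Low Fe replicate 2 stood above the other 5 samples, and the log2 difference of 0.85 ± 0.57 did not pass (limma adjusted p = 0.60). A dimmer Jchain probe set gave 0.12 ± 0.24. Sdc1, syndecan-1, which marks plasma cells and is also made by epithelium, gave 0.60 ± 0.18 without overlap between the groups (limma adjusted p = 0.611), and 0.73 ± 0.32 for a dimmer probe set. Tnfrsf17, a survival receptor of plasma cells, gave -0.27 ± 0.18 on 230B. Its groups did not overlap either, but it was lower in low Fe. Xbp1, a factor for secretion, gave 0.17 ± 0.13. Igha was not analysed here. On 230B, 0% of the 9166 tested probe sets passed, 10.3% had an unadjusted p under 0.05, and for 17.5% the groups did not overlap.

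The GAPDH ratio sets cut across the iron groups, so the differences were also taken within them, with no test. In the lower set, of 1 high Fe and 2 low Fe arrays, the log2 differences were -0.12 for Reg3b, -0.75 for Reg3g, 1.17 for Lyz2, 3.07 for Pla2g2a and 0.18 for Pigr. In the higher set, of 2 high Fe arrays and 1 low Fe array, they were -0.41, -0.31, -0.12, -0.68 and -0.88 in the same order. The values of Pla2g2a rest on dim signals. Reg3b and Reg3g kept their sign in both sets, while Lyz2, Pla2g2a and Pigr were above 0 in the lower set and below 0 in the higher one. With the sets as a block in the fit, the differences of the tested members were -0.27 for Reg3b, -0.53 for Reg3g, 0.52 for Lyz2 and -0.35 for Pigr, and 0 passed. The part of RNA quality in the members' values was not tested further.

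**Figure D3:**
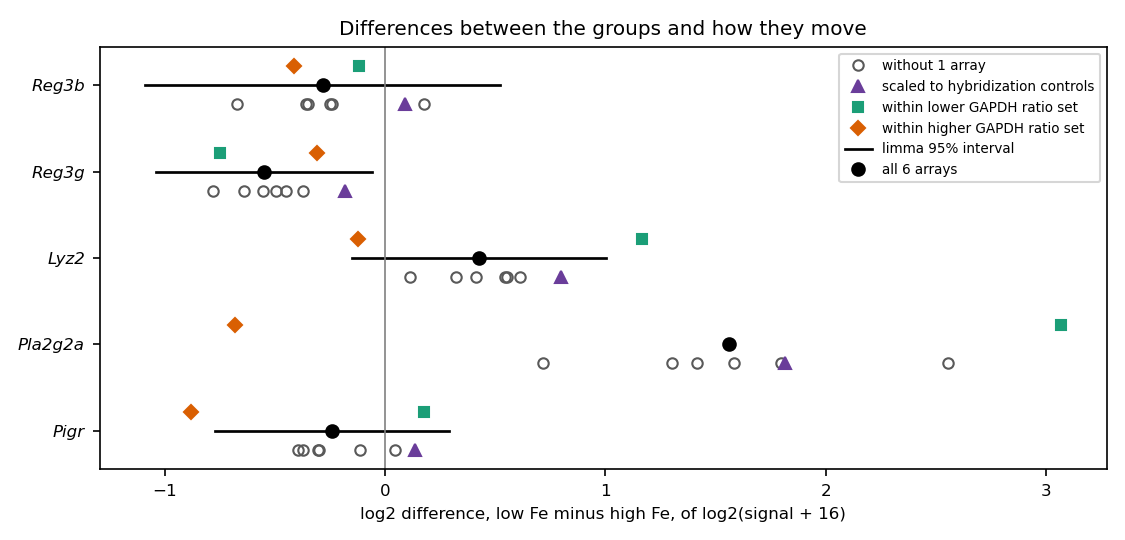
Log2 difference (low Fe minus high Fe) of each member on the log2(signal + 16) scale. Black points use all 6 arrays with the limma 95% interval (none for the untested Pla2g2a), open circles leave out 1 array, triangles are scaled to the hybridization controls, and squares and diamonds are within the lower and higher GAPDH ratio sets. The interval of Reg3g, -1.04 to -0.06, is the only one of the 4 that lies on one side of 0, and it is not adjusted for the number of probe sets.

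The members varied more between samples of a group than most genes. The SD within groups on the log2 scale was 0.61 for Reg3b, 0.42 for Lyz2, 0.38 for Pigr and 0.33 for Reg3g, against a median of 0.21 over tested probe sets. It was thus above that of 96.6%, 90.5%, 88.2% and 82.0% of them. The spread lay in different groups: Reg3b varied in high Fe (SD 0.86, and 0.13 in low Fe), and Pigr in low Fe (SD 0.50, and 0.22 in high Fe).

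Genes with the most similar profiles were sought among 7031 named genes by the root mean square difference between centred log2 profiles over the 6 arrays, where 0 means equal profiles. For Reg3b these were Fbxo34, an F-box protein (0.18), Aoc3, a vascular amine oxidase (0.20), and Fasn, fatty acid synthase (0.23). For Reg3g they were Igsf3 (0.11), Tbce, a tubulin folding cofactor (0.14), and Plekhn1 (0.14). Lyz2 was nearest to 2810025M15Rikl (0.13), LOC100912002 (0.13) and Tnmd, tenomodulin (0.14), with signals from 85.1 to 231.4. Pigr was nearest to Pdcl3, a chaperone cofactor (0.06), Scaper (0.09) and Hnrnpab, an RNA-binding protein (0.09), which were lowest in low Fe replicate 1 as well. Among the tested members the nearest pair was Reg3b and Reg3g, at 0.33, where Reg3g ranked 65 among the 7031 genes by likeness to Reg3b and Reg3b ranked 1184 by likeness to Reg3g. The farthest pair was Reg3g and Lyz2, at 0.70.

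Other antimicrobial effectors did not pass either. Of 41 fixed genes, 27 were on 230A and 15 were tested there, of which 0 passed, 6 lay above 0 and 9 below, with a median log2 difference of -0.03. Beside Defa24, the smallest unadjusted p-values belonged to Pla2g10, a further secretory phospholipase (-0.16 ± 0.13), Nos2, the inducible nitric oxide synthase (0.74 ± 0.65), and Muc13, a membrane mucin (-0.17 ± 0.17). Nos2 was lowest in high Fe replicate 3, with the other 5 samples from 114.1 to 347.7. The neutrophil proteins S100a8 and S100a9, named here after their values were seen, were dim, at 0.1 to 4.7 and 8.8 to 25.3, and were not tested.

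Genes upstream of the lectins gave no call. Of the interleukin 22, interleukin 17 and STAT3 list, 12 genes were tested on 230A, with 5 above 0 and 7 below (median -0.04), and 6 on 230B, with 5 above and 1 below (median 0.31). Jak2, a kinase that acts with cytokine receptors, gave 0.50 ± 0.20 on 230B (limma adjusted p = 0.454) and 0.06 ± 0.29 on 230A. The related kinase Jak1 gave 0.36 ± 0.16 on 230B, with 0.11 ± 0.23 for a dimmer probe set. The receptor chain Il17rc gave 0.48 ± 0.25, and the cytokine subunit Il23a gave -0.32 ± 0.18. The probe sets of Stat3, named here after the values were seen, disagreed, at 0.23 ± 0.27 for the brighter and -0.89 ± 0.44 for the dimmer. Of the list for microbial sensing and NF-kB, 15 genes were tested on 230A, with 6 above 0 and 9 below (median -0.01), and 8 on 230B, with 4 above and 4 below (median -0.01). Tnfrsf1a, a receptor for tumour necrosis factor, had 1628, 1705 and 1748 in high Fe and 2271, 2092 and 2515 in low Fe. The groups did not overlap, and its log2 difference of 0.43 ± 0.12 did not pass (limma adjusted p = 0.564). Irf1, an interferon factor known to act on Pigr, gave -0.30 ± 0.14, Nfkb2 0.22 ± 0.15 and Ikbkb, a kinase that frees NF-kB, -0.25 ± 0.17. Groups also did not overlap for Jak2 on 230B and Nfkb2, higher in low Fe, and for Il23a and Irf1, lower in low Fe. The share without overlap was 11.7% of tested probe sets on 230A and 17.5% on 230B.

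Markers of other cells of the scraping were summed beside the members. Enterocyte genes numbered 16 tested on 230A, with 2 above 0 and 14 below, a median of -0.12 and values of 0.22 for Cdx2, -0.23 for Alpi and Cdh17, and -0.19 for Si. On 230B both tested ones were below 0, Vil1 at -0.16 ± 0.13. Goblet cell genes numbered 6, all below 0 on 230A, with a median of -0.08, while 4 were above 0 on 230B. Clca1 gave -0.04 ± 0.12 on 230A and 0.48 ± 0.19 on 230B, Agr2 and Spdef gave 0.16 and 0.18 on 230B, and Zg16 gave -0.21 on 230A. Smooth muscle genes numbered 6 tested on 230A, all above 0, with a median of 0.50, and Smtn gave 1.11 ± 0.30, Mylk 0.43 ± 0.13, Des 0.59 ± 0.22 and Acta2 0.29 ± 0.19. On 230B 3 were tested, with 2 above 0 and 1 below and a median of 0.09, and there Mylk gave 0.09 ± 0.42 and Des 0.41 ± 0.53. The summed smooth muscle signal was 3802 to 4470 in high Fe and 4810 to 6236 in low Fe, highest in low Fe replicate 2 on 230A. Mylk alone made up most of that sum, at 2436 to 2926 in high Fe and 3391 to 4013 in low Fe. The sum therefore does not measure smooth muscle. On 230B the sums overlapped, at 1304 to 1712 in high Fe and 1281 to 1740 in low Fe, with low Fe replicate 1 the highest. The part of smooth muscle RNA in the values of Lyz2 and Defa24 was not tested. Pancreas acinar markers, sought because that organ also makes Reg3 lectins, were mostly dim, with 3 of the 14 on 230A bright enough to be tested. Cpa1 was at 5.6 to 34.6 and Pnlip at 52.9 to 99.8. The sum was 709.8 to 930.9 in high Fe and 761.1 to 1010 in low Fe. The tested ones gave 0.96 ± 0.59 for Cela1, -0.25 ± 0.23 for Cpb1 and 0.04 ± 0.19 for Sycn. Signals of Cela1 ran from 35.1 to 340.6. Over these 10 lists, 0 of 91 genes tested on 230A and 0 of 34 on 230B passed in limma, with 6 and 4 at an unadjusted p under 0.05.

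**Figure D4:**
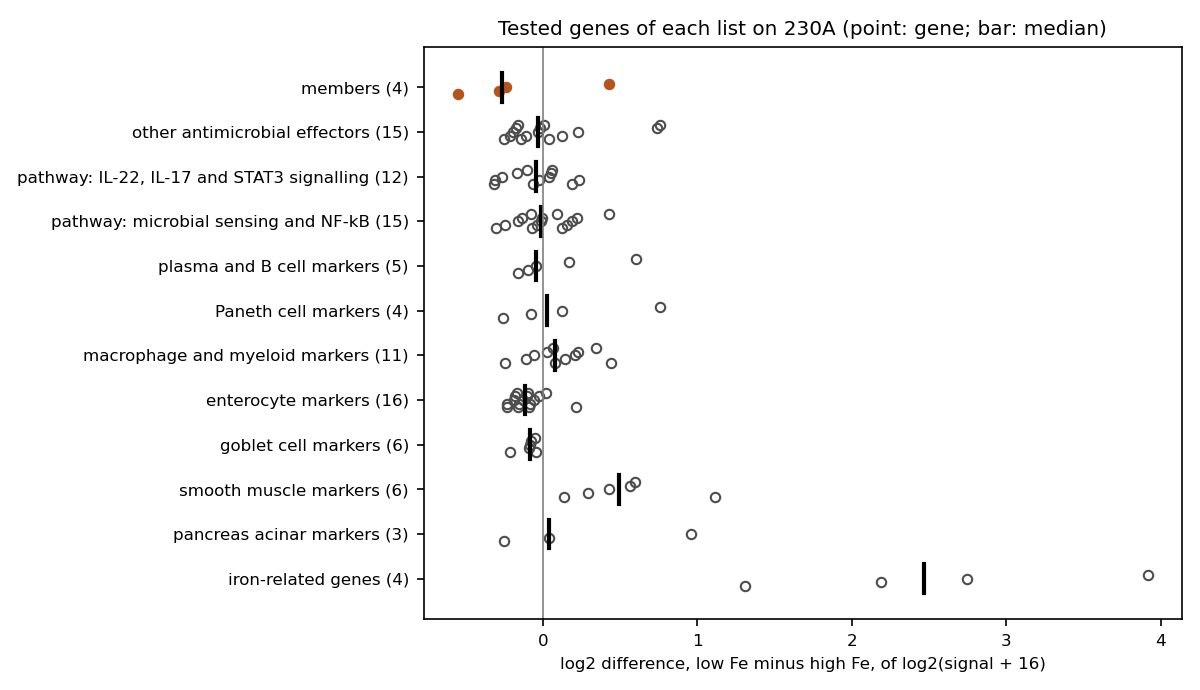
Log2 differences (low Fe minus high Fe, of log2(signal + 16)) of the tested genes of each list on 230A, with the number of genes in brackets; points are genes and bars are medians. Each gene is plotted at its brightest probe set. The 4 tested members lie between -0.55 and 0.43, and Reg3g lies below every other gene plotted (the next lowest is Il23a at -0.32). Dimmer tested probe sets of Stat3 (-0.89), Fut2 (-0.77) and Apob (-0.68), not plotted, lie lower than Reg3g. The 4 iron-related genes that check the labels (Cybrd1, Tfrc, Slc11a2 and Hmox1) lie from 1.31 to 3.91.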

How the data were processed

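The authors deposited 1 intensity per probe set and array for 12 arrays. Their summarising software was not given in the sources used here. The mean without the outer 2% at each end was 500.1 on each 230A array and 500.2 on each 230B array, so the arrays had been scaled alike and a shift of most genes together would not be seen. Signals were not rescaled. The 57 control probe sets of each type were left out. Values were transformed as log2(signal + 16), probe sets whose mean signal was among the lowest 40% were dropped (limit 109 on 230A and 199.6 on 230B), and the groups were set against each other by lmFit and eBayes of limma 3.58.1 (R 4.3.3) with a trend, each type alone, with Benjamini-Hochberg adjustment over its probe sets and a threshold of adjusted p 0.05. The steps were tested on simulated data. The number of arrays limits precision.

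Names come from the platform annotation, updated through Entrez identifiers to RefSeq GRCr8, which 12748 of 12783 single-symbol probe sets of 230A matched. The brightest probe set stands for a gene. The members and lists were chosen with earlier results of these data known. All members are named. From each list the text takes up to 4 tested genes with the smallest unadjusted p, over both types, and fixed defining markers. Si, Defa5, Sox9, Spink4, Ctss, Myh11, Fut2 and Apob are named beyond this rule, after their values were seen, as are the genes so marked in the text. Promoter stretches are from RefSeq. Alternatives were other pseudocounts, filters, scalings and eBayes settings, blocks, a threshold of 0.1 and each array left out.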

Additional observations from a re-analysis of the deposited data

How the results depend on the processing

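No member passed under any of the 18 alternatives to the test. Reg3g and Lyz2 kept their sign in all of them, and Pla2g2a in the 11 that could be run for an untested probe set. Alternatives that change only the filter, the eBayes setting, the threshold or the replicate block return the same difference. They therefore do not test a sign. Scaled to the hybridization controls, Reg3b (0.091) and Pigr (0.13) changed sign, both below the shifted median of 0.34. Leaving out 1 array gave -0.68 to 0.17 for Reg3b and -0.40 to 0.046 for Pigr, where dropping high Fe replicate 2 turned the sign of Reg3b and dropping low Fe replicate 1 that of Pigr. The causes were not tested. Of the other lists' genes, 1 passed after scaling to the hybridization controls (Smtn), and 0 otherwise. The 9 calls on 230A became 34 under that scaling, 15 at a threshold of 0.1, 21 without low Fe replicate 1, 5 without low Fe replicate 2 and 4 with a replicate block. Nothing in the labels pairs equal numbers: deviations of same-numbered samples correlated at -0.37, -0.15 and -0.27 on 230A, and 0 of 6 samples were closest to their own number. With the replicate block, the adjusted p was 0.95 for each of the 4 tested members. Averaging a member's probe sets changes nothing, since each has 1, and no fit was possible for members on 230B. Signals near or under 109 on 230A limit what Pla2g2a can show.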
